A study of Mus musculus with 9 samples.

Results

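The genes described here are 8 transcription factor and cofactor genes of the macrophage lineage, Spi1, Ets2, Cebpa, Cebpb, Cebpd, Runx1, Cbfa2t3 and Maf. They were taken by symbol from a table of 50600 genes, and each symbol matched 1 row. RNA came from RAW-Blue cells, a mouse macrophage tumour line that carries an integrated reporter for inflammatory signalling and was grown with Zeocin and Normocin in every group. The labels name 9 samples in 3 groups of 3. In the LPS group lipopolysaccharide, the Gram-negative membrane component sensed by Tlr4, was given at 1 µg/ml for 24 hours. The LPS-PjELNs group got exosome-like nanovesicles from the plant Peucedanum japonicum for 16 hours ahead of the same stimulus, and it is not analysed here. The None group was left without either agent. All values below come from the 3 LPS and the 3 None libraries, of 1 cell line, and the labels do not say whether replicates were separate cultures, so each p measures only the spread between these libraries.

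Macrophage identity is set by a small circuit of DNA-binding proteins. PU.1, the product of Spi1, binds purine-rich ETS sites and opens enhancers in myeloid cells. C/EBP proteins bind beside it as dimers, with C/EBPα known for granulocyte and monocyte precursors and C/EBPβ and C/EBPδ for the acute inflammatory response. RUNX1 works with its partner CBFβ, and the corepressor encoded by Cbfa2t3, also called ETO2, acts with blood-cell factors to hold genes silent. The protein c-MAF restrains self-renewal of mature macrophages.

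The libraries held 14650843 to 15659413 estimated counts in the LPS group and 17028457 to 17665200 in the None group. Of 11916 genes with enough counts for a test, 69.1% differed between the groups by edgeR's quasi-likelihood test at an adjusted p under 0.05, with 34% higher and 35.1% lower in LPS. Of the 8232 called genes 4052 were higher; with scaling by library totals 30.6% of called genes were higher, and on log2(TPM + 1) values 35.2%. In 73.6% of the genes tested the libraries of the groups did not overlap. Mitochondrial genes took 2.462% to 2.696% of counts in LPS and 3.84% to 4.28% in None. Of 14 macrophage markers 13 were tested, of which 5 rose, among them Itgam, and 6 fell, among them Csf1r, while Mertk had 2 counts in all. Of 47 markers of other cell types 23 had 0 counts in every library, including all 4 mast cell markers, and 4 were tested, of which 3 were called higher and 0 lower. CPM values are, unless stated otherwise, counts scaled to the library total times its TMM factor, as in the edgeR test. These factors were 0.8994 to 0.9407 in LPS and 1.083 to 1.103 in None. The summed level of these 47 markers ran from 24.0 to 26.2 CPM in LPS and from 4.23 to 4.70 CPM in None. Most of it in LPS was the neutrophil marker S100a8, with 15.4 ± 1.61 CPM in LPS and 0.141 ± 0.0656 CPM in None (SD, n = 3 each). Of the 8 neutrophil markers 4 had 0 counts in every library, and S100a8 was the only 1 tested. S100a9 had 4 counts over the LPS libraries and 0 over the None libraries. The part of these markers of other cell types in the results below was not tested. In bulk RNA a smaller share of expressing cells and less RNA per cell cannot be told apart.

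The lineage factors moved apart after LPS. Cebpb and Ets2 rose to more than 3 times their level in None, Cebpa, Runx1 and Cbfa2t3 fell, Spi1 and Cebpd did not pass the test, and Maf had no counts. Among the 7 tested, 2 were called higher and 3 lower, which is near the background shares of 34% and 35.1% given above. The groups did not overlap in CPM for 6 of the 7, where 73.6% of all genes tested did not. The median log2 fold change of the 7 was 0.11, beside -0.03 over all genes tested.

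**Figure D1:**
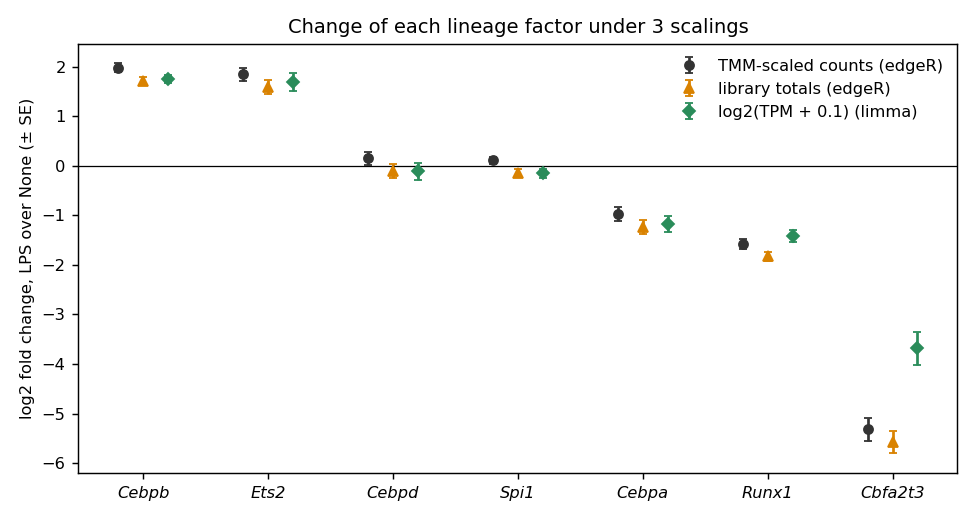
Fitted log2 fold changes (LPS over None, bars ± SE) of the 7 tested lineage factors under 3 scalings. Cebpb at 1.98 and Ets2 at 1.85 lie above 0 and Cebpa, Runx1 and Cbfa2t3 below it in all 3, whereas Spi1 and Cebpd lie just above 0 with TMM scaling and just below it with the other scalings.

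Among the C/EBP genes, Cebpb and Cebpa moved in opposite directions. Cebpb, whose product drives many cytokine and acute-phase genes, lies on chromosome 2 at chr2:167688915-167690418 on the plus strand (GRCm38). Its level was 477, 381 and 439 CPM in the LPS libraries, against 109, 108 and 112 CPM in the None libraries. Each LPS library stood well above each None library. The rise was 3.94-fold, a log2 fold change of 1.98 ± 0.09 (SE, edgeR quasi-likelihood test, adjusted p = 1.55e-09).

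Cebpa, which encodes the C/EBP protein of the precursor stage and restrains cell division, lies at chr7:35119303-35121928 on the plus strand. It had 34.03, 27.2 and 25.5 CPM in the LPS libraries, against 70.4, 49.6 and 50.3 CPM in the None libraries. The groups did not overlap, and None replicate 1 was the highest of its group. Cebpa fell 1.96-fold, with a log2 fold change of -0.97 ± 0.14 (SE) and an adjusted p of 6.2e-05 in the same edgeR test. Without None replicate 1 the log2 fold change of Cebpa was -0.79 and it was still called. The annotated antisense gene Gm45091 shares 1.9% of the exon bases of Cebpa and held 5 counts in LPS and 36 in None.

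Cebpd, known as an early amplifier of Tlr4 responses, lies at chr16:15887286-15891031 on the plus strand. It had 24.7, 38.4 and 33.98 CPM in LPS libraries and 30.7, 27.4 and 29.4 CPM in None libraries. LPS replicate 1 lay below every None library while the other two LPS libraries lay above them. The log2 fold change was 0.15, with a 95% interval from -0.14 to 0.44 (edgeR quasi-likelihood test, adjusted p = 0.342). Without LPS replicate 1 it was 0.31 with an adjusted p of 0.0141 in that test, and with scaling by library totals it was -0.11. The gene Spidr runs on the opposite strand and shares 15% of the exon bases of Cebpd in the GENCODE annotation. Spidr itself rose, with a log2 fold change of 0.87, and the labels and files do not state whether counting used strand, so reads of the shared part cannot be told apart.

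The promoters of Cebpb and Cebpa are shown because these paralogs, whose proteins bind the same kind of site, moved in opposite directions. Each line gives the 250 bases before the RefSeq start of transcription (GRCm38.p6), read on the strand of the gene. Capitals mark matches on either strand to any of 9 motifs. The motifs were PU.1 (GAGGAAGT), RUNX (TGTGGT), C/EBP (TTGCNNAA), NF-kappaB, the cyclic AMP response half-site (TGACG), STAT (TTCCNGGAA), the E-box (CACGTG), the TATA box (TATAAA) and SP1 (GGGCGG), and matches of one motif may overlap.
Cebpb, chr2:167688665-167688914, plus strand: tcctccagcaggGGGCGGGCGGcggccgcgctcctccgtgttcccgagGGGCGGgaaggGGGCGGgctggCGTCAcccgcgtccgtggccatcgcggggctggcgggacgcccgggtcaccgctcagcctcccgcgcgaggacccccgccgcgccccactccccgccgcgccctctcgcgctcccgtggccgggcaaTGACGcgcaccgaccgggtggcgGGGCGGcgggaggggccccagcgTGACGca
Cebpa, chr7:35119043-35119292, plus strand: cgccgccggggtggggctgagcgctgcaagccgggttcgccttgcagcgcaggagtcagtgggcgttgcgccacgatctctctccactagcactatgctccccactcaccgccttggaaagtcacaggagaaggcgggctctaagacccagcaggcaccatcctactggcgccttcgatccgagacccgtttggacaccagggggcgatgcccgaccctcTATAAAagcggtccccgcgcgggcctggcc
The Cebpb window holds 5 matches to the SP1 motif, of which the first pair share bases, and 3 to the cyclic AMP response half-site. The Cebpa window holds 1 TATA match, starting 30 bases before the start of transcription. Of 32807 mouse promoter windows of this length 32.7% hold at least 1 match to the SP1 motif, 17.8% to the half-site and 12.4% to the TATA motif. How many windows hold several matches was not counted. A match describes letters and not a bound site.

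Of the ETS genes, Ets2 rose and Spi1 did not pass the test. Ets2 encodes an ETS factor that is activated by Ras and MAP kinase signalling and acts downstream of the Csf1 receptor in macrophages. It lies at chr16:95702075-95721051 on the plus strand. Its level was 88.9, 114 and 108 CPM in the LPS libraries, against 23.01, 34.3 and 29.3 CPM in the None libraries. The lowest LPS library was above the highest None library. The rise was 3.59-fold, with a log2 fold change of 1.85 ± 0.13 (SE, edgeR quasi-likelihood test, adjusted p = 1.03e-07).

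Spi1, at chr2:91082390-91114366 on the plus strand, was the most abundant of the set in None libraries by TPM. It had 247, 273 and 268 CPM in the LPS libraries and 243, 242 and 243 CPM in the None libraries. In these TMM-scaled values the LPS libraries were all above the None libraries, which were nearly equal, but the gap was small. The log2 fold change was 0.11, with a 95% interval from -0.04 to 0.27 and an adjusted p of 0.167 in the same edgeR test. Its direction depends on the scaling, since it was -0.14 with library totals and -0.15 on log2(TPM + 0.1) values, and in TPM (transcript abundance per length) the libraries of the groups overlap. Library totals moved all tested genes by a median of -0.26 on the log2 scale and those TPM values by -0.22.

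Runx1 and Cbfa2t3 both fell, and Cbfa2t3 fell furthest of the 8 genes. Runx1 encodes the DNA-binding subunit of core-binding factor, which with PU.1 controls Csf1r. It lies at chr16:92601466-92826149 on the minus strand. Its level was 45.3, 39.6 and 48.6 CPM in the LPS libraries, against 150, 124 and 123 CPM in the None libraries. The highest LPS library had less than the lowest None library. Runx1 fell 2.97-fold, with a log2 fold change of -1.57 ± 0.10 (SE, edgeR quasi-likelihood test, adjusted p = 3.27e-08).

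Cbfa2t3, which encodes the ETO-family corepressor, lies at chr8:122625141-122699109 on the minus strand. It had 6, 7 and 9 counts in the LPS libraries, against 468, 412 and 339 counts in the None libraries. In CPM the levels were 0.426, 0.508 and 0.649 in LPS and 25.4, 21.3 and 17.5 in None. The gene was near 0 in all 3 LPS libraries and at a modest level in all 3 None libraries. The log2 fold change was -5.32 ± 0.23 (SE, edgeR quasi-likelihood test, adjusted p = 1.1e-09), and 98.7% of tested genes had a change of that size or smaller. Galnt2l and Gm15899, annotated within the locus, share 0 of its exon bases.

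For Runx1 and Cbfa2t3 the fall was smaller in TPM than in counts. On log2(TPM + 0.1) values the log2 fold change of Cbfa2t3 was -3.68 and that of Runx1 -1.42, and the pseudocount also lowers the size for Cbfa2t3, which had 0.110 to 0.390 TPM in LPS. TPM divides counts by the transcript length estimated in each library, so count per TPM, set to the library median over genes and to 1 in None, gives the relative length assigned to a gene. For Runx1 it was 0.786, 0.770 and 0.763 in the LPS libraries and 0.971, 1.03 and 1.00 in the None libraries. For Cbfa2t3 it was 0.589, 0.495 and 0.244 in LPS and 1.02, 0.941 and 1.04 in None. The groups did not overlap for either gene, but they did not overlap for Cebpb either, whose log2 shift was only 0.003. The share of all genes without overlap in this measure was not counted. A shift at least as large as that of Runx1 was seen in 5.26% of 11730 genes, and one as large as that of Cbfa2t3 in 0.239%. The Cbfa2t3 estimate in LPS rests on 6 to 9 counts a library. Means of the other 5 genes lay between 0.956 for Ets2 and 1.03 for Spi1 in LPS. This measure was added after the data were seen.

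**Figure D2:**
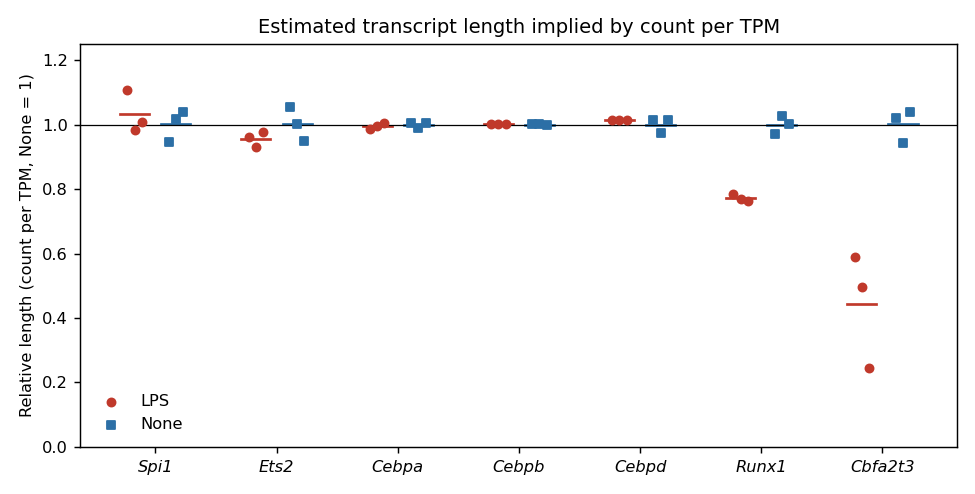
Relative transcript length (count per TPM, mean of None set to 1) of each tested lineage factor in each library, with points for libraries and lines for group means. The LPS libraries of Runx1 lie near 0.77 and those of Cbfa2t3 between 0.244 and 0.589, and the other genes stay near 1.

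GENCODE release M21 lists 5 coding transcripts of Runx1, from 336 to 5861 bases, and 4 of Cbfa2t3, from 639 to 7645 bases. The longest transcript of each begins at the distal start, and the next longest begins downstream of it. Shorter transcripts are also listed near the distal starts, of 336 and 2538 bases for Runx1 and of 537 bases for Cbfa2t3. A shorter assigned length therefore does not tell which start was used. The deposited tables hold 1 value per gene, so which transcript changed was not measured. The windows before the downstream starts are shown because assigned length fell for both genes, and no motif of the set matched in this Runx1 window.
Runx1, chr16:92697330-92697579, minus strand: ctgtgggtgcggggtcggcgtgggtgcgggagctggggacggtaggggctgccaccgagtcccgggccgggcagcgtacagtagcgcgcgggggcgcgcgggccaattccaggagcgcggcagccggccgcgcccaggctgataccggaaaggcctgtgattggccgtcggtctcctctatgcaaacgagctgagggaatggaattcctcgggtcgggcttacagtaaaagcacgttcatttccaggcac
Cbfa2t3, chr8:122678176-122678425, minus strand: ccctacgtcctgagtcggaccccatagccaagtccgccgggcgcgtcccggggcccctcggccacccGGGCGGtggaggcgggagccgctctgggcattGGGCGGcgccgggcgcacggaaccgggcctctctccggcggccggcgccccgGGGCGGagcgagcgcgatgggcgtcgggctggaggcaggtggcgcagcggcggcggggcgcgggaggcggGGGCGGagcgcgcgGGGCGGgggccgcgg
This Cbfa2t3 window holds 5 matches to the SP1 motif. The windows before the distal starts are not printed, since annotated exons overlap them. The distal Cbfa2t3 window holds 1 match each to the PU.1 motif, the cyclic AMP response half-site and the SP1 motif. The distal Runx1 window holds 1 match to the E-box. Of all windows 2.44% hold the PU.1 motif and 6.02% the E-box. The RefSeq table held windows for 5 of the 8 genes, and the window of Ets2 holds 1 match each to the SP1 motif and the cyclic AMP response half-site. All 250 bases of that Ets2 window lie within annotated exons.

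Maf, which encodes c-MAF and lies at chr8:115701435-115707794 on the minus strand, had 0 counts in each of the 6 libraries. With 3 counts as the limit that a count of 0 allows, its level could be up to 0.0657 CPM over the LPS group and 0.0574 CPM over the None group. The limits use library totals without TMM factors, and they cover counting error only.

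The order of the lineage factors, compared in TPM, was led by different genes in the groups. In LPS libraries the order was Cebpb (365 ± 37.3 TPM), Spi1 (242 ± 29.3), Ets2 (33.1 ± 5.11), Runx1 (19.0 ± 1.42), Cebpa (12.99 ± 2.29), Cebpd (9.75 ± 2.21) and Cbfa2t3 (0.220 ± 0.149), with SDs over 3 libraries. In None libraries it was Spi1 (268 ± 16.4 TPM), Cebpb (108 ± 0.468), Runx1 (51.0 ± 7.55), Cebpa (29.6 ± 6.20), Cebpd (10.4 ± 0.419), Ets2 (10.3 ± 2.29) and Cbfa2t3 (3.79 ± 0.787). Libraries of neighbouring genes overlapped only between Cebpa and Cebpd in LPS and between Cebpd and Ets2 in None. Cebpb was above Spi1 in each LPS library and below it in each None library.

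**Figure D3:**
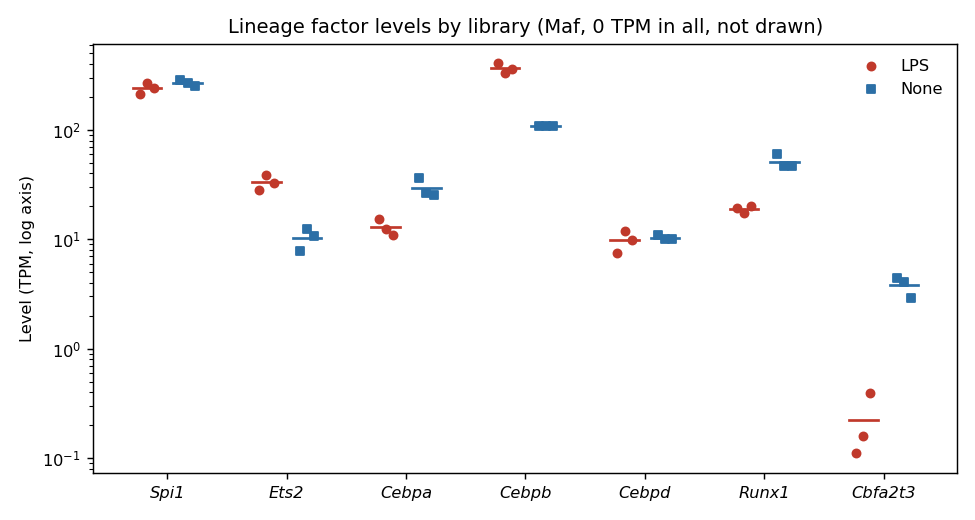
Levels in TPM (log axis) of the 7 lineage factors with counts, for 3 LPS and 3 None libraries, with lines at the group means. Cebpb lies at 331 to 405 TPM in LPS and near 108 in None, and Cbfa2t3 below 0.4 TPM in LPS and above 2.9 in None.

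A ratio between 2 genes of the same library does not depend on how libraries are scaled to each other. The TPM ratio of Cebpb to Cebpa was 26.2, 26.4 and 32.7 in the LPS libraries, against 2.96, 4.07 and 4.27 in the None libraries. The difference was 2.93 on the log2 scale, and the groups lay far apart relative to their spread. Of the summed TPM of Cebpa, Cebpb and Cebpd, the Cebpb share was 93.1% to 94.6% in LPS and 69.6% to 75.4% in None. The ratio of Ets2 to Spi1 was 0.134, 0.142 and 0.134 in LPS libraries and 0.0274, 0.0464 and 0.0425 in None libraries, a log2 difference of 1.85. The ratio of Cebpd to Cebpa was also higher in LPS, by 1.07 on the log2 scale, and that of Cebpd to Cebpb was lower, with a log2 difference of -1.86. That of Cbfa2t3 to Runx1 had a log2 difference of -2.88, and -3.78 when CPM replaced TPM. In all 5 pairs the groups did not overlap. Among single genes tested 73.6% did not overlap in CPM, and the share over all gene pairs was not counted. The pairs among the C/EBP genes share members and are not independent. The exact two-sided permutation test gave p = 0.1 for each pair, also after Benjamini-Hochberg adjustment over the 5 pairs. The smallest value that 3 against 3 libraries allow is 0.1.

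**Figure D4:**
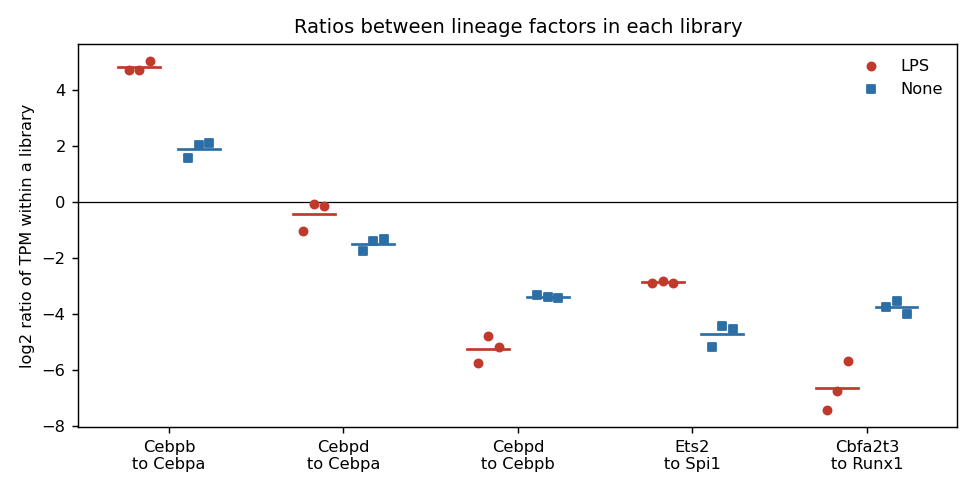
Log2 ratio of TPM between pairs of lineage factors within each library, with LPS libraries left of None libraries and lines at group means. The ratio of Cebpb to Cebpa lies between 4.71 and 5.03 in LPS and between 1.57 and 2.10 in None, and in none of the 5 pairs do the groups overlap.

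Genes of the same families also moved both ways. Of 24 other ETS genes 14 were tested, of which 7 rose and 5 fell. Among all genes tested 34% were higher and 35.1% lower. The median log2 fold change of the ETS genes was 0.10. The PEA3 subfamily, Etv1, Etv4 and Etv5, known as effectors of growth factor signalling, rose. Etv4 had 13.5, 8.50 and 10.3 CPM in LPS libraries and 0.0543, 0.103 and 0.103 CPM in None libraries, and its log2 fold change was 6.83 ± 0.34 (SE). The size of that change rests on 5 counts over the None libraries, and Etv4 passed the count filter through the LPS libraries alone. Etv1 rose 3.95-fold and Etv5 2.73-fold. Fli1, an ETS factor of blood and vessel precursors, fell 2.29-fold to 26.4, 26.9 and 28.2 CPM in LPS libraries, against 61.2, 61.2 and 64.4 CPM in None libraries.

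Of 19 RUNX partners and genes of the ETO complex 16 were tested, and 4 rose and 6 fell, against background shares of 34% and 35.1%. The median log2 fold change was 0.00. On log2(TPM + 1) values 2 were higher and 8 lower, and with library totals 3 were higher and 9 lower. Cbfb, the obligate partner subunit of Runx1, fell 1.83-fold, with 64.7, 69.6 and 52.5 CPM in LPS libraries and 123, 112 and 107 CPM in None libraries. Lyl1 and Lmo2, blood-cell factors that sit in complexes with the Cbfa2t3 product, fell 2.62-fold and 2.60-fold. The paralog Runx2, known from bone, had a log2 fold change of 0.68 (edgeR quasi-likelihood test, adjusted p = 0.000169), and a call lost on log2(TPM + 1) values, at 0.31 with an adjusted p of 0.126 in limma. The Cbfa2t3 paralog Cbfa2t2 was not called, with a log2 fold change of -0.13, and Runx3 and Runx1t1 had 0 counts. Gfi1, a blood-cell repressor, was called higher at a low level, with 37 counts over the LPS libraries and 2 over the None libraries.

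Of 6 C/EBP partners and regulators 5 were tested and 3 rose, where 34% of all genes tested were higher, and the median log2 fold change was 0.80. They were Ddit3, a C/EBP relative that dimerizes with the others and is induced by stress (5.70-fold), and the pseudokinase genes Trib3 (4.15-fold) and Trib1 (1.74-fold). Trib1, whose product directs C/EBPα protein to degradation, had 44.5, 35.8 and 30.9 CPM in LPS libraries and 21.8, 21.9 and 20.3 CPM in None libraries. With scaling by library totals 2 genes of this list, Cebpe and Cebpg, were also called lower. Among the small MAF factors and their BACH partners, Maff (3.8-fold) and Mafg rose and the repressor gene Bach1 fell 2.09-fold. Mafg, at a log2 fold change of 0.39, was not called with library totals, where it was 0.13.

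Of 26 other myeloid transcription factor genes 18 were tested, with 3 higher and 8 lower, against the same background of 34% and 35.1%. The median log2 fold change was -0.28. The 3 higher became 5 without LPS replicate 3, 1 with library totals and 1 on log2(TPM + 1) values. Klf4, a zinc finger factor of monocyte differentiation, fell 3.27-fold, Mef2c 2.31-fold and the lymphoid and myeloid regulator Ikzf1 1.89-fold, and the orphan nuclear receptor gene Nr4a1 rose 3.81-fold. Irf8, a partner of PU.1 in monocyte commitment, had 134, 135 and 136 CPM in LPS libraries and 134, 114 and 115 CPM in None libraries. It was not called, with a log2 fold change of 0.15, but was called at 0.23 without None replicate 1, and its sign turned with library totals, at -0.10.

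**Figure D5:**
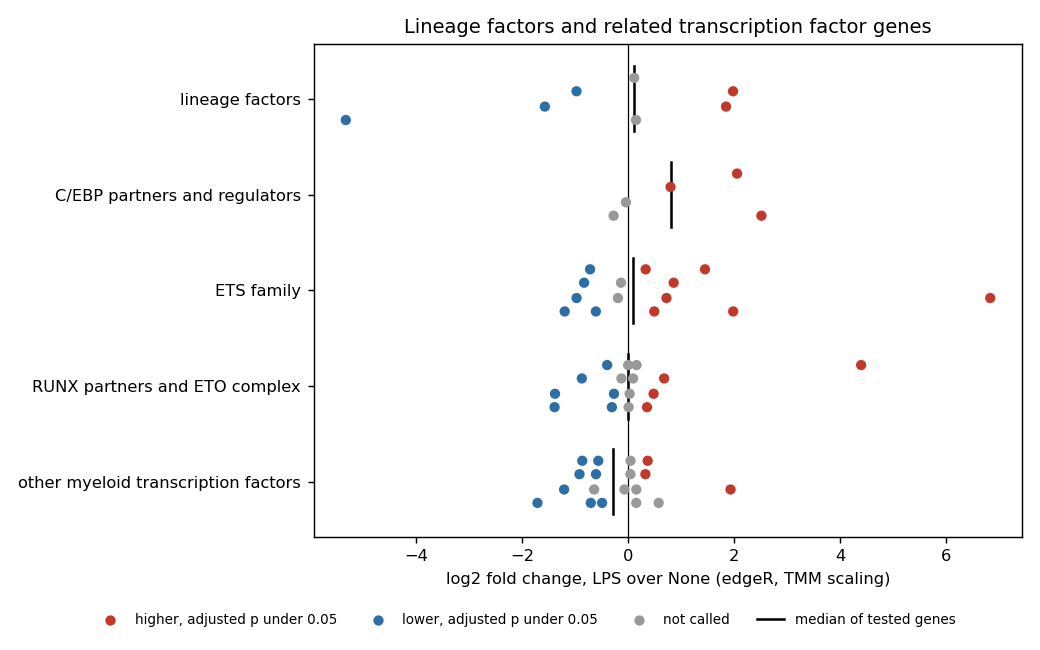
Log2 fold changes (LPS over None) of the tested genes in the lineage factor set and in 4 lists of related transcription factor genes. Points are genes, coloured by the edgeR call, and the bars at list medians lie between -0.28 and 0.80, with Cbfa2t3 lowest at -5.32 and Etv4 highest at 6.83. Etv4 had 5 counts over the None libraries.

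Of 17 PU.1 target genes, all tested, 8 rose and 4 fell, where 34% of all genes tested were higher and 35.1% lower. Their median log2 fold change was 0.13. On log2(TPM + 1) values, as with library totals, 8 were higher and 6 lower. The scavenger receptor Msr1 rose 5.93-fold and the integrin chain Itgb2 3.61-fold, whereas the growth factor receptor genes Csf3r and Csf1r fell 6.46-fold and 2.51-fold. Csf1r, a target shared by PU.1 and RUNX1, had 716, 702 and 721 CPM in LPS libraries and 1986, 1723 and 1653 CPM in None libraries. Of 17 C/EBP target genes 12 were tested, 11 rose and 1, Csf3r, fell, beside 34% higher and 35.1% lower among all genes tested. The median log2 fold change of the list was 5.14. Without the filter on low counts 16 of its genes were tested, with 12 higher and 2 lower. The largest fitted increases were those of Csf3, Lcn2, Il1b and Nos2, of which Csf3 and Lcn2 had 0 counts in None. Csf3, the granulocyte growth factor, had 986, 924 and 890 CPM in the LPS libraries, and Lcn2, an iron-sequestering protein, had 45.9, 43.6 and 55.1 CPM. With those 2 genes at their lower bound the median stayed at 5.14, but both stay above the middle of the list, so it could not move. The middle lies between Saa3 at 3.03 and Il6 at 7.25, and Il6 had 1 count over the None libraries. Il1b had 2893, 1150 and 1192 CPM in LPS libraries and 0.326, 0.465 and 0.207 CPM in None libraries. Il1b, Lyz2, Csf3r and Msr1 are on the PU.1 list too, so the counts of these 2 lists are not independent. Il1b and Nos2 are textbook LPS-induced genes. Csf3, Lcn2, Il6, Nos2 and Il1b passed the count filter through the LPS libraries alone. Over the None libraries they had 0, 0, 1, 6 and 19 counts. Such genes could hardly be called lower, and the list was chosen with earlier results of these data known. Its counts and median are therefore no test of a C/EBP target response. Of 7 MAF target genes only the mannose receptor gene Mrc1 was tested, and it rose, with 3.57 ± 0.790 CPM in LPS and 0.756 ± 0.343 CPM in None (SD, n = 3 each), while C1qa, C1qb and Cd163 had 0 counts.

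The genes whose profile over the 6 libraries was nearest to that of each lineage factor were taken by Euclidean distance between centred log2 CPM values. Nearest to Cebpb were the kinase gene Pim3 at a distance of 0.11 and the proteasome subunit gene Psmd11 at 0.15. Nearest to Ets2 was the serine synthesis enzyme gene Psph at 0.11, followed by Phf11d at 0.28. Nearest to Cebpa were Ap1s2 at 0.19 and the macrophage pore protein gene Mpeg1 at 0.20, and nearest to Runx1 were Rassf3 at 0.15 and Tmem42 at 0.17. Nearest to Spi1 were Nsd3 at 0.06 and Ndufaf8 at 0.07, and to Cebpd Endod1 at 0.16 and Lrch3 at 0.18. Cbfa2t3 had no close match, and its nearest genes were the lipid receptor gene S1pr1 at 0.54 and Col15a1 at 0.54.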

How the data were processed

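RNA-seq of RAW-Blue cells was deposited as tables of expected counts and TPM, per the file headers. Reads were processed with STAR 2.7.10a and RSEM 1.3.1 on GRCm38, per the submitters' processing notes, and per the labels' protocols SOAPnuke removed adapter and low-quality reads. The deposited expected counts are estimates that need not be whole, and those of all 8 genes were whole. The deposited TPM values are scaled by the authors for transcript length and library size. Library totals were 14650843 to 17665200 counts, and 12 further library columns, whose names match no label, were not used. The 530 rows without a symbol were kept under their identifiers. File starts were moved by 1, since 82.1% of genes then match GENCODE M21 exactly.

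Counts were rounded, filtered by filterByExpr (minimum 10, total 15), scaled by TMM and tested with edgeR 4.0.16 in R 4.3.3 (glmQLFit and glmQLFTest, two-sided, group as the single term), with Benjamini-Hochberg adjustment over 11916 genes and a threshold of 0.05. SE is the log2 fold change divided by the square root of F. The edgeR, DESeq2 and limma fits were tried on simulated counts in which few genes changed, as many up as down. Since 69.1% of genes were called here, that does not test the scaling between these groups. The ratio, relative length and nearest profile steps were not simulated. Alternatives were RLE factors, library totals, DESeq2 1.42.0, other filters, limma 3.58.1 on log2 TPM values, a replicate block and leaving out each library. Ratios of TPM were tested by exact permutation. The gene set, lists and pairs were chosen with earlier results of these data known. The planned ratio of Maf to Spi1 was not made because Maf had no counts. From each list the text names up to 4 called genes with the largest changes and a mean of at least 5 CPM in one group, plus Cbfb, Cbfa2t2, Trib1, Irf8, Csf1r and Fli1; 1 gene that the rule names, and the counts of its list, are not reported here, and other genes were named after their values were seen. For each factor the 2 nearest profiles are named, with predicted genes left out.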

Additional observations from a re-analysis of the deposited data

How the results depend on the processing

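Over 15 alternatives Cebpa, Cebpb, Runx1, Ets2 and Cbfa2t3 kept their direction and their call, but the size for Cbfa2t3 ran from -5.58 with library totals to -1.97 on log2(TPM + 1) values, with the low-value filter and without it. With scaling by library totals, 2679 genes were higher in LPS in place of 4052, the log2 fold change of Spi1 was -0.14 and that of Cebpd -0.11. On log2(TPM + 1) values they were -0.15 and -0.10, with the low-value filter and without it, and on log2(TPM + 0.1) values -0.15 and -0.11. Under none of these was Spi1 or Cebpd called. In CPM the log2 difference of the Cbfa2t3 to Runx1 ratio was -3.78. With each library left out in turn, Cebpd ranged from 0.014 to 0.31, called only without LPS replicate 1, Spi1 from 0.09 to 0.16, Cebpa from -1.11 to -0.79, Cbfa2t3 from -5.49 to -5.18, and 5 or 6 factors were called. Correlations of same-numbered deviations were 0.08, -0.02 and 0.01, and those of differently numbered ones ran from -0.06 to 0.07. Such weak correlations cannot show whether the replicate number paired the libraries. With a replicate block 5 factors were still called, and 8362 genes in place of 8232, and the sign-flip test over 3 pairs gave 0.25 for each ratio, the smallest value it allows. Depth limits Cbfa2t3 in LPS (6 to 9 counts) and Maf (0 counts).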
